A study of Mus musculus with 12 samples.

Results

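Genes that mark B lymphocytes were followed in RNA from whole pylorus, where the stomach opens into the duodenum. Mice were either wild-type or carried the transgene CEA424-SV40 T Ag. The 8 genes, taken by symbol from the 23420 genes of the count table, were Ms4a1, Cd79a, Cd79b, Blk, Pou2af1, Fcer2a, Cr2 and Tnfrsf13c, and all 8 were found. All mice were C57BL/6, and the groups were wild-type at D60, transgenic at D60, wild-type at D80 and transgenic at D80, where D is the age in days. Each of the 4 groups had 3 libraries. In the transgenic mice a fragment of the human carcinoembryonic antigen promoter drives the SV40 large T antigen, a viral oncoprotein that inactivates tumour suppressors, and gastric tumours form spontaneously. No treatment is given for any group. The labels do not say that the libraries of a group came from separate mice, so each p-value measures the spread between these libraries, which may be technical in part.

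B cells recognise antigen through a membrane immunoglobulin that cannot signal on its own. Its tails are too short, and it depends on the paired chains CD79A and CD79B, whose cytoplasmic motifs are phosphorylated by Src-family kinases such as BLK. CD20, the product of Ms4a1, sits in the same membrane, complement receptor CR2 lowers the threshold for activation, and the BAFF receptor TNFRSF13C delivers the survival signal on which mature B cells depend. CD23, the product of Fcer2a, is a low-affinity IgE receptor of mature follicular B cells, and Pou2af1 encodes a coactivator of octamer-binding factors that is also used by plasma cells. CR2 and CD23 are found on follicular dendritic cells too, the stromal cells that display antigen in lymphoid follicles. The stomach of a healthy mouse holds few organised lymphoid follicles.

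In GENCODE M21 on GRCm38 the genes lie on 8 different chromosomes. Cd79a is on chromosome 7 (24897381 to 24902197, plus strand) and Cd79b on chromosome 11 (106311341 to 106314762, minus strand). Blk is on chromosome 14 (63372836 to 63417037, minus strand) and Ms4a1 on chromosome 19 (11249675 to 11266241, minus strand). Cr2 is on chromosome 1 (195136811 to 195176716, minus strand) and Fcer2a on chromosome 8 (3681737 to 3694175, minus strand). Tnfrsf13c is on chromosome 15 (82221743 to 82224369, minus strand) and Pou2af1 on chromosome 9 (51213708 to 51240080, plus strand). All are annotated as protein-coding genes.

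RefSeq (GRCm38.p6) gave promoter windows for 5 of the 8 genes. The 250 bases upstream of the RefSeq start are shown for 3 genes. These are the 2 genes whose difference from wild-type was largest at D80 and the receptor chain Cd79a. For Cd79a the GENCODE start, 24897381, lies inside this window, so its last part is within the gene as GENCODE annotates it. They are written 5′ to 3′ on the gene's own strand, in lower case, with capitals for every match to a searched motif.
Cr2, chr1:195176720-195176969, minus strand: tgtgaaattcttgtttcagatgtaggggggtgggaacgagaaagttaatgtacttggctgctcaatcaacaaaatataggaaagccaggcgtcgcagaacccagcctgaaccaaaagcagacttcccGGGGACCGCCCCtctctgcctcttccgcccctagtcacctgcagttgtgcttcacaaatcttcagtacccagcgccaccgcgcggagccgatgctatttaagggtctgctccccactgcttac
Cd79a, chr7:24897247-24897496, plus strand: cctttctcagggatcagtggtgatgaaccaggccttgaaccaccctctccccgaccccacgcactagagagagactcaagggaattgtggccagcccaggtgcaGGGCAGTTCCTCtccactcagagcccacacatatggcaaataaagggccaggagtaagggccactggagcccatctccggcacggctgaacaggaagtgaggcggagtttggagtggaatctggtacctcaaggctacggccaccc
Fcer2a, chr8:3694175-3694424, minus strand: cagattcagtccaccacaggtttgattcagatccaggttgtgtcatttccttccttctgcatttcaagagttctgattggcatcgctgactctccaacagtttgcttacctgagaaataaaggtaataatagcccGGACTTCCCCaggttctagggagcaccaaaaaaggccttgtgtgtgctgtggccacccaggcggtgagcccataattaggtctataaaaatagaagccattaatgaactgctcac
On both strands, the kappa-B pattern, GGG and CC separated by any 5 bases, was matched in all 5 windows, against 45.8% of 32851 promoter windows of the same length. The ETS core GAGGAA was matched in Cd79a alone, where it overlaps the kappa-B match, against 23.3% of windows. Neither the octamer ATGCAAAT (1.6% of windows) nor the EBF pattern CCCNNGGG (11.8%) was matched in the 5 windows. These are matches of letters only. No window was used for Ms4a1, Cd79b or Blk.

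Libraries held 20121600 to 27633715 counts, so 3 counts correspond to 0.109 to 0.149 CPM, the count scaled to library size. Levels below are CPM on library sizes adjusted by TMM, edgeR's correction for RNA composition. All libraries held the epithelial gene Epcam at 376 to 653 CPM, and the neuroendocrine gene Chga was at 867 to 5065 CPM in transgenic and 52.4 to 120 CPM in wild-type libraries. Xist, which is transcribed from the inactive X chromosome of females, had 0, 0 and 1 counts in the D60 wild-type libraries and 2687 or more in the D60 transgenic libraries, so genotype and sex cannot be told apart at D60. All 3 D80 wild-type libraries had 2218 to 2768 Xist counts, so age and sex cannot be told apart in wild-type mice. D80 transgenic replicate 1 had 0 Xist counts and replicates 2 and 3 had 7038 and 11633, so that group holds more than 1 mouse. One library stood apart in the genes described here. D80 transgenic replicate 3 held 1780 counts of the 8 genes together (95% exact Poisson interval 1698 to 1865, counting error only), while replicates 1 and 2 of its group held 273 (242 to 307) and 250 (220 to 283). Wild-type libraries held 28 to 70 counts at D60 and 67 to 162 at D80, and D60 transgenic libraries 40 to 99. Results are therefore given with and without D80 transgenic replicate 3. Libraries that stood apart in other tissue markers are named here or beside results they touch. D80 wild-type replicate 1 held Muc6 at 8113 CPM, against 3720 and 1485 in replicates 2 and 3. Its Gkn1 was at 14891 CPM, against 35390 and 37227. Whether this plays a part in its low B-cell counts was not tested. It and D80 wild-type replicate 3, which held the most duodenal enterocyte transcripts, both enter the D80 comparison of genotypes. In bulk RNA, more B cells and more RNA per B cell cannot be told apart.

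B-cell transcripts were sparse in every group except D80 transgenic, where all 3 libraries held more than 10 counts of each of the 8 genes. The paired receptor chains had the most counts of the 8 genes in D80 transgenic replicate 3, and Pou2af1 had the most in the 11 other libraries. Cd79a had 3, 5 and 2 counts in D60 wild-type replicates 1 to 3, 3, 7 and 11 in D60 transgenic, 1, 43 and 31 in D80 wild-type, and 49, 46 and 502 in D80 transgenic libraries. Its level in D80 transgenic replicate 3 was 15.6 CPM, against 1.47 and 1.7 in the other 2 libraries of the group, which lay inside the D80 wild-type range of 0.0406 to 1.9. The partner chain Cd79b had 8, 3 and 11 counts in D60 wild-type, 5, 12 and 28 in D60 transgenic, 15, 34 and 33 in D80 wild-type, and 42, 63 and 453 in D80 transgenic libraries. In D80 transgenic replicate 3 it stood at 14.0 CPM, and replicates 1 and 2, at 1.26 and 2.32 CPM, overlapped the D80 wild-type range of 0.61 to 1.5.

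The kinase Blk was almost absent from wild-type pylorus, with 1, 0 and 0 counts at D60 and 0, 2 and 4 at D80. It had 4, 1 and 4 counts in D60 transgenic and 15, 17 and 75 in D80 transgenic libraries. The D80 groups did not overlap, at 0.451 to 2.32 CPM in transgenic and 0 to 0.173 CPM in wild-type libraries. Ms4a1, encoding CD20, had 4, 3 and 4 counts in D60 wild-type, 2, 2 and 9 in D60 transgenic, 0, 1 and 9 in D80 wild-type, and 19, 14 and 231 in D80 transgenic libraries. Its 2 lower D80 transgenic libraries, at 0.571 and 0.516 CPM, were above the highest D80 wild-type library at 0.39 CPM by a small margin, and replicate 3 stood at 7.16 CPM.

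Both receptors shared with follicular dendritic cells were at or near 0 outside the D80 transgenic group. Cr2 had 0, 2 and 1 counts in D60 wild-type, 0, 2 and 6 in D60 transgenic, 0, 0 and 1 in D80 wild-type, and 16, 12 and 67 in D80 transgenic libraries. Fcer2a, encoding CD23, had 0 counts in all 3 D60 wild-type libraries, 1, 0 and 3 counts in D60 transgenic, 1, 1 and 0 in D80 wild-type, and 18, 20 and 190 in D80 transgenic libraries. For both genes every D80 transgenic library was clear of every other library of the series, including the 2 with low totals.

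The BAFF receptor gene Tnfrsf13c had 0, 3 and 0 counts in D60 wild-type, 1, 1 and 4 in D60 transgenic, 0, 8 and 7 in D80 wild-type, and 12, 12 and 68 in D80 transgenic libraries. The lowest D80 transgenic library, at 0.36 CPM, was barely above the highest wild-type library, at 0.353 CPM. Pou2af1, like Cd79a and Cd79b, was present in every library. It had 12, 54 and 32 counts in D60 wild-type, 24, 32 and 34 in D60 transgenic, 50, 73 and 56 in D80 wild-type, and 102, 66 and 194 in D80 transgenic libraries, and its D80 groups overlapped.

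**Figure D1:**
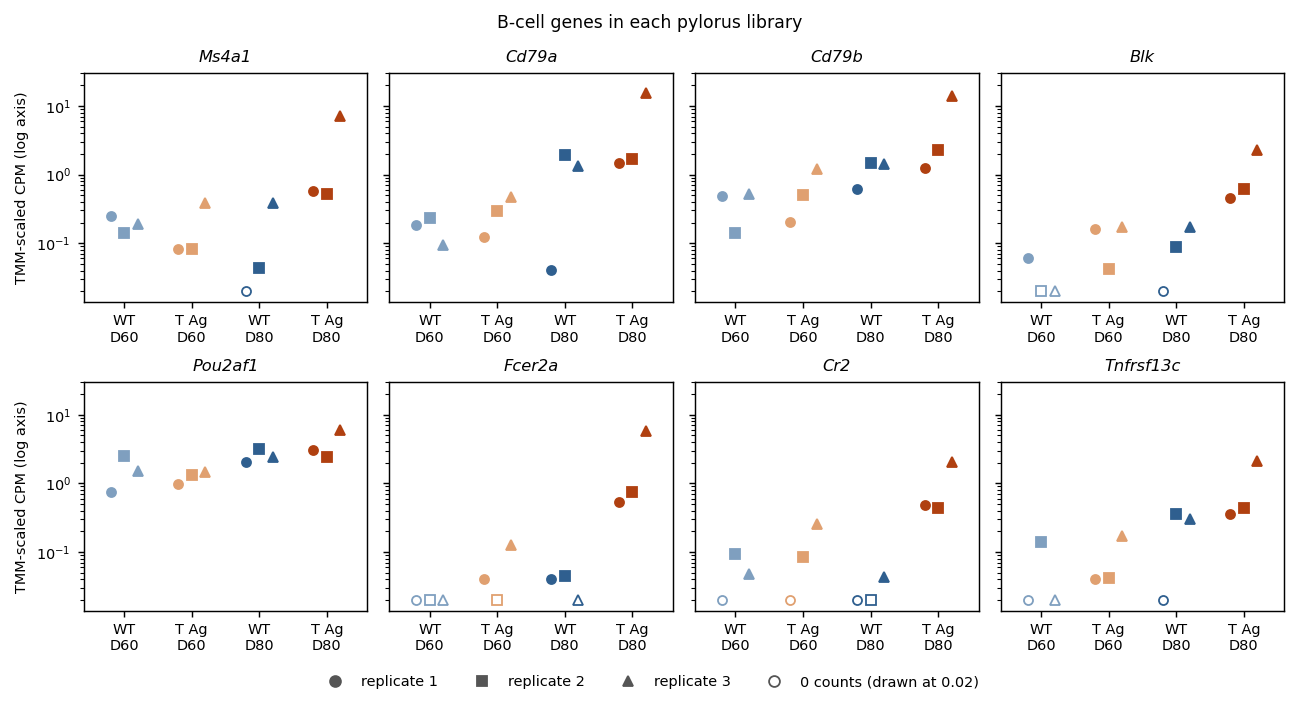
TMM-scaled CPM (log axis) of the 8 B-cell genes, 1 panel per gene, in wild-type (WT) and transgenic (T Ag) libraries at D60 and D80. Each symbol is 1 library, its shape gives the replicate, and open symbols mark 0 counts. D80 transgenic replicate 3 is the highest point in all 8 panels, from 2.08 CPM for Cr2 to 15.6 CPM for Cd79a.

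Levels were compared between genes per kilobase of annotated exon, a scale that uses the union of all annotated exons and so understates genes with long or rarely used ones. In D80 transgenic libraries the mean was 4.28 ± 5.54 CPM per kilobase for Cd79a and 4.1 ± 4.95 for Cd79b (SD, n = 3). Pou2af1 followed at 1.51 ± 0.749, then Fcer2a at 0.773 ± 0.981, Tnfrsf13c at 0.474 ± 0.481, Ms4a1 at 0.444 ± 0.617, Blk at 0.42 ± 0.383 and Cr2 at 0.123 ± 0.115. No neighbours in this order differed by more than the larger of their 2 SDs, and the SD exceeded the mean for 5 of the 8 genes. The order rests on replicate 3. Cd79a was at 1.01 and 1.16 CPM per kilobase in replicates 1 and 2 and at 10.7 in replicate 3. Cd79b was at 0.882 and 1.62 in replicates 1 and 2 and at 9.81 in replicate 3, and Pou2af1 at 1.2, 0.955 and 2.36 in replicates 1 to 3. In replicates 1 and 2 these 3 genes were thus at similar levels. Pou2af1 was instead the highest of the 8 in the other 3 groups, at 0.629 ± 0.355 in D60 wild-type, 0.491 ± 0.0965 in D60 transgenic and 1.0 ± 0.238 CPM per kilobase in D80 wild-type. Cd79b was next in those groups, at 0.27 ± 0.149, 0.441 ± 0.354 and 0.825 ± 0.346.

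At D80 the comparison of transgenic with wild-type asks how the tumour-bearing pylorus differs in B-cell transcripts. Of the 8 genes, 5 were higher in transgenic libraries by edgeR's quasi-likelihood test at an adjusted p of 0.05, and 0 were lower, where 19.4% of all 15369 tested genes were higher and 22.0% lower. With no composition factor, 39.7% of all genes were called and 33.2% were higher, and 7 of the 8 genes were called higher. The median log2 fold change of the 8 genes was 3.09, and that of all genes -0.07. Cr2 had 95 counts over the transgenic group and 1 over wild-type, a ratio of 72.1 (95% Clopper-Pearson counting interval 12.6 to 2878, adjusted p = 0.0038). Fcer2a had 228 and 2 counts, a ratio of 86.5 (23.7 to 719, adjusted p = 0.0055). Blk rose by 3.65 on the log2 scale (SE 0.90, adjusted p = 0.0077), Ms4a1 by 4.22 (SE 1.22, adjusted p = 0.017) and Cd79b by 2.32 (SE 0.85, adjusted p = 0.047). Cd79a (2.52, SE 1.0, adjusted p = 0.063), Tnfrsf13c (2.15, SE 0.96, adjusted p = 0.092) and Pou2af1 (0.59, SE 0.43, adjusted p = 0.30) did not pass. Of the 8 genes, 5 were higher in every D80 transgenic than in every D80 wild-type library, a pattern found in 24.4% of all tested genes. These were Ms4a1, Blk, Fcer2a, Cr2 and Tnfrsf13c. Each had 9 counts or fewer in every library outside the D80 transgenic group, and so passed the filter on low counts only through that group. Their lack of overlap was thus fixed by the filter and is no support for a difference. The 24.4% is not a like background for them, and their calls share this limit.

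Without D80 transgenic replicate 3, 3 of the 8 genes passed at D80, where 16.4% of all genes were higher, and the median log2 fold change of the 8 fell to 1.42. Cr2 (4.62, SE 1.18, adjusted p = 0.015), Fcer2a (4.30, SE 0.92, adjusted p = 0.0097) and Blk (2.62, SE 0.84, adjusted p = 0.040) passed. The fitted values of Cr2 and Fcer2a rest on 1 and 2 wild-type counts and depend on the prior count of the fit. The value for Ms4a1 was 1.93 (SE 0.95, adjusted p = 0.15), for Cd79a 0.59 (SE 0.84, adjusted p = 0.64) and for Cd79b 0.65 (SE 0.66, adjusted p = 0.50). Leaving out D80 wild-type replicate 2 also left 3 calls, Cr2, Fcer2a and Blk, where 16.2% of all genes were higher. Ms4a1 was then at 3.81 (adjusted p = 0.061) and Cd79b at 2.53 (adjusted p = 0.086). Cd79b further lost its call without any 1 of D60 wild-type replicates 1, 2 and 3, D60 transgenic replicate 2 and D80 wild-type replicates 1 and 3, at adjusted p = 0.053 to 0.10.

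Within transgenic mice, the comparison of D80 with D60 asks how B-cell transcripts changed with age in the model. All 8 genes were higher at D80 by edgeR's quasi-likelihood test, where 17.7% of all genes were higher and 18.0% lower, with a median log2 fold change of 3.34 against 0.02 for all genes. The groups did not overlap for any of the 8, a pattern seen for 30.6% of all genes. For Ms4a1, Blk, Fcer2a, Cr2 and Tnfrsf13c this was fixed in advance, since they passed the filter only through the D80 transgenic group. The largest value was that of Fcer2a, at 5.31 (SE 1.22, adjusted p = 0.0089), from 4 counts over the D60 group to 228. Cd79a rose by 4.39 (SE 1.15, adjusted p = 0.012), Ms4a1 by 3.89 (SE 1.18, adjusted p = 0.024), Tnfrsf13c by 3.47 (SE 1.09, adjusted p = 0.028) and Cd79b by 3.21 (SE 0.90, adjusted p = 0.017). Blk rose by 3.14 (SE 0.85, adjusted p = 0.015), Cr2 by 3.11 (SE 0.91, adjusted p = 0.021) and Pou2af1 by 1.61 (SE 0.45, adjusted p = 0.016). With no composition factor, 40.7% of all genes were called and 33.5% were higher, and the count of the 8 genes was again 8. This comparison and the one at D80 share the 3 D80 transgenic libraries. Other immune lists also rose with age, with 7 of 16 T-cell genes higher (median 2.06) and 7 of 12 macrophage and dendritic cell genes (median 1.22). Of 10 plasma cell genes 2 were higher (median 0.92).

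The count of 8 rested on few libraries. Without D80 transgenic replicate 3, Fcer2a alone passed (3.43, SE 0.83, adjusted p = 0.020), where 13.2% of all genes were higher, and the other 7 genes were at 1.16 for Pou2af1 to 2.44 for Cd79a with adjusted p = 0.076 to 0.22. Without D60 transgenic replicate 1 the calls were Blk and Fcer2a, 2 in all, where 12.2% of all genes were higher. Without D60 transgenic replicate 2 they were 4, Blk, Cd79a, Fcer2a and Pou2af1, where 17.3% of all genes were higher. In D80 transgenic replicates 1 and 2, all 8 genes were nevertheless above each D60 transgenic library, which the filter fixed for Ms4a1, Blk, Fcer2a, Cr2 and Tnfrsf13c. The narrowest of these margins was that of Cd79b, at 1.26 against 1.19 CPM. Without D80 transgenic replicate 3 the median log2 fold change was 2.06 for the 8 genes. It was 2.03 for the T-cell list, 2.03 for the cytotoxic and NK cell list and 1.14 for the macrophage and dendritic cell list. A median of that size was thus not particular to the 8 genes.

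**Figure D2:**
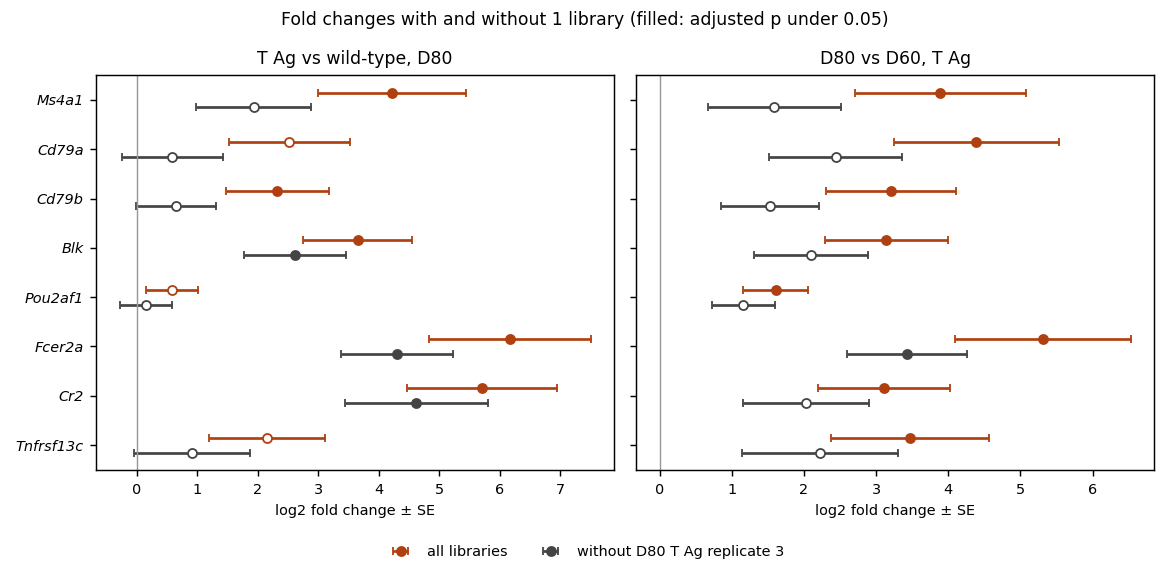
Log2 fold change with its SE for the 8 genes, for transgenic against wild-type at D80 (left) and for D80 against D60 in transgenic mice (right), from all libraries (brown) and without D80 transgenic replicate 3 (grey). Filled points passed an adjusted p of 0.05. Without that library, 3 points are filled on the left and 1 on the right, and every estimate in both panels is above 0.

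At D60, transgenic and wild-type libraries overlapped for all 8 genes, while 12.2% of all genes were higher in every transgenic library. By edgeR's quasi-likelihood test 0 of 8 passed, where 3.66% of all genes were higher and 0.241% lower, and 0 had an unadjusted p under 0.05. DESeq2, which gave no adjusted p-value for 1 gene, and limma-voom also called 0. The median log2 fold change was 0.74, or 0.69 with Fcer2a, which had 0 wild-type counts, at its bound of at least 1.08-fold, and adjusted p-values ran from 0.53 to 0.99. For all genes but Pou2af1 (SE 0.46), the SE was 1.03 to 2.99 on the log2 scale, so the test could miss differences of several fold. For Ms4a1, with 13 transgenic and 11 wild-type counts, the counting interval of the ratio ran from 0.396 to 2.36, and for Blk, with 9 and 1 counts, from 1.01 to 320.

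Between D60 and D80 in wild-type mice 0 of 8 genes passed, as did 0.0% of all genes by edgeR. Of the 8, 0 had an unadjusted p under 0.05. By limma-voom and DESeq2 0 were called, and DESeq2 gave no adjusted p-value for 4. Cd79b was the 1 gene with no overlap, 7.06% of all genes being higher in every D80 library. Cd79a went from 10 to 75 counts over the group (log2 fold change 2.63, SE 1.30, adjusted p = 0.44), a difference that cannot be told apart from sex, and 1 of the 3 D80 libraries, replicate 1, was at 1 count. In replicates 2 and 3, the libraries with 43 and 31 Cd79a counts, the joining chain Igj of secreted IgA and IgM had 8026 and 3741 counts, against 658 in replicate 1. Mzb1, a chaperone cofactor of antibody-secreting cells, had 98 and 56 counts there against 11. Ms4a1 had 1 and 9 counts in the same 2 libraries. Replicate 3 also held the most duodenal enterocyte transcripts, at 12998 summed CPM over 12 genes against 693 and 3236, and whether these play a part in its lymphoid values was not tested. The test of whether the genotype difference itself changed with age found 0 of 8 genes (5.0% of all genes in either direction). It gave 0 at an unadjusted p under 0.05. By limma-voom and DESeq2 0 were called, and DESeq2 again gave no adjusted p-value for 4. The closest were Ms4a1 (4.29, SE 1.96, adjusted p = 0.22) and Cr2 (4.65, SE 2.27, adjusted p = 0.25). The difference at D80 was therefore not shown to exceed that at D60.

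D80 transgenic replicate 3 exceeded the other 2 libraries of its group in B-cell genes more than in nearly all other genes. All 8 were at least 2 times the mean of replicates 1 and 2, where 1.63% of 15338 genes with 10 counts or more in the group were, and 7 were at least 4 times, where 0.183% of genes were. Ms4a1 was 13.2 times as high, and Pou2af1, at 2.19 times, was the lowest of the 8. When the 13771 genes with 50 counts or more in replicate 3 were ordered by their ratio to the higher of the other 2 libraries, Ms4a1 came 1st, Cd79a 3rd, Fcer2a 7th, Cd79b 8th, Tnfrsf13c 11th, Cr2 12th, Blk 17th and Pou2af1 113th. This ordering was chosen after the values were seen, and as a description of 1 library it carries no test. Other genes at its top also belong to B cells. Faim3, the Fc receptor for IgM also called Fcmr, came 2nd with 193 counts against 18 and 14. Btla, an inhibitory receptor of B and T cells, came 4th with 160 against 17 and 15. H2-Ob, a subunit of the MHC class II modulator HLA-DO found mainly in B cells, came 9th with 186 against 34 and 26.

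Marker lists of other cells were compared in the same way, with no list for neutrophils among them. The median ratio of replicate 3 to the other 2 was 6.54 for the 8 genes, 3.2 for 12 genes of the B-cell receptor and coreceptor list, 1.23 for 14 receptor signalling genes and 1.2 for 16 T-cell genes. It was 1.21 for 12 macrophage and dendritic cell genes, 1.01 for 10 plasma cell genes, 0.672 for 5 cytotoxic cell genes and 0.982 for all genes. Summed T-cell transcripts were 38.8 CPM in replicate 3 and 33.5 and 37.2 in the other 2. Duodenal enterocyte transcripts summed to 1779 CPM in the same library and to 3686 and 3981 in replicates 1 and 2. There were 786 CPM of pancreatic acinar and islet genes against 3811 and 916, and 64.1 CPM of adipose genes against 53.2 and 85.8. These neighbouring tissues were thus not at their highest there.

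**Figure D3:**
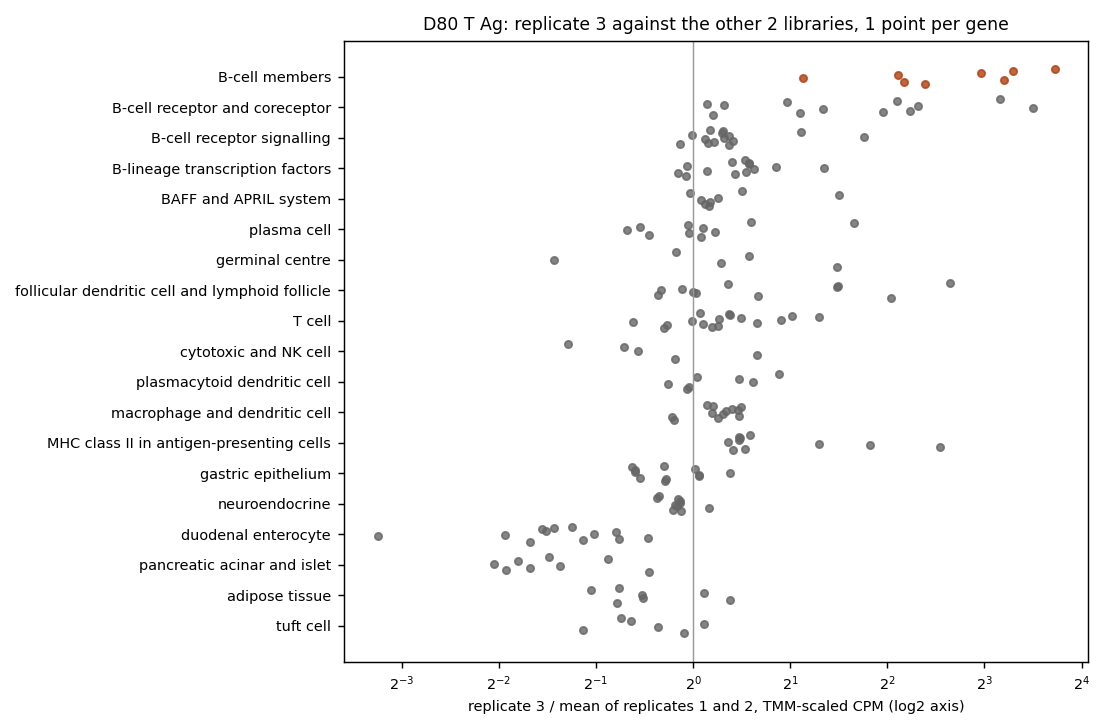
Ratio of D80 transgenic replicate 3 to the mean of replicates 1 and 2 in TMM-scaled CPM (log2 axis), 1 point per gene, for the 8 B-cell genes (brown) and 18 other marker lists (grey), in genes tested and with 10 counts or more in the group. The B-cell genes lie between 2.19 and 13.2, while the medians of the T-cell and macrophage lists are 1.2 and 1.21.

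Genes of the list for lymphoid follicles and follicular dendritic cells were examined beside the 8. Cxcl13, the chemokine that draws B cells into follicles, had 45, 70 and 397 counts in the D80 transgenic libraries, 5, 22 and 56 in D80 wild-type, 8, 11 and 19 in D60 transgenic and 6, 16 and 6 in D60 wild-type libraries. It was higher at D80 than at D60 in transgenic mice (3.34, SE 0.93, adjusted p = 0.016) and did not pass against D80 wild-type (2.18, adjusted p = 0.061). Its receptor Cxcr5 had 11, 6 and 83 counts in D80 transgenic libraries and 0 to 8 in the 9 others. Glycam1, a mucin made by high endothelial venules, had 5, 14 and 97 counts there and 1 count in the 9 other libraries together. Cxcr5 and Glycam1 were removed by the filter on low counts and have no test. Over the whole follicle list, 6 of 11 tested genes were higher and 0 lower at D80 against wild-type. Without D80 transgenic replicate 3 the count was also 6. Of all genes, 19.4% were higher with that library and 16.4% without it. Madcam1, an adhesion molecule of gut venules, rose by 1.76 (SE 0.31, adjusted p = 0.0012), Ltb, a lymphotoxin subunit, by 2.72 (SE 0.53, adjusted p = 0.0022) and the chemokine receptor Ccr7 by 3.55 (SE 0.73, adjusted p = 0.0028). Ccr7 is also carried by T cells and dendritic cells. Ccl21a had 0 counts in all 12 libraries. The list's median ratio of D80 transgenic replicate 3 to replicates 1 and 2 was 1.28, with 4 of 11 genes at least 2 times as high. That ratio was 0.998 for Clu, 1.02 for Mfge8 and 0.78 for Enpp2. Enpp2 was at 35.9, 25.4 and 23.9 CPM in the D80 transgenic libraries, below the 43.6, 40.5 and 47.5 CPM of D80 wild-type, and did not pass.

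Most genes of the B-cell receptor and coreceptor list moved in the same direction. Of 12 tested genes of the receptor and coreceptor list, 9 were higher and 0 lower in D80 transgenic than in D80 wild-type libraries, with a median of 2.26, and without D80 transgenic replicate 3 the count was 5 and the median 1.67. Over all genes 19.4% were higher with that library and 16.4% without it. Cd22, an inhibitory lectin of B cells, had 85, 64 and 339 counts in the D80 transgenic libraries and 2 to 26 in each of the 9 others, and rose by 3.66 (SE 0.73, adjusted p = 0.0023). The inhibitory Fc receptor Fcgr2b (2.20, SE 0.40, adjusted p = 0.0014) and the tetraspanin Cd53 (2.57, SE 0.41, adjusted p = 0.00059) also rose, and both are carried by myeloid cells too. Macrophage and dendritic cell genes were higher in the same comparison, 8 of 12, with summed levels of 307 to 410 CPM in transgenic and 103 to 167 CPM in wild-type libraries, and their part in the rise of Fcgr2b and Cd53 was not tested.

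Genes downstream of the receptor were mixed. Of 14 receptor signalling genes 4 were higher and 1 was lower at D80, where 19.4% of all genes were higher and 22.0% lower, with a median of 0.36, and without D80 transgenic replicate 3 the counts were 1 and 0, where 16.4% of all genes were higher. Vav1, a guanine nucleotide exchange factor of all blood cells, rose by 1.44 (SE 0.33, adjusted p = 0.0049) and the kinase Btk by 1.35 (SE 0.40, adjusted p = 0.018), while the adaptor Bcl10 fell, at -0.39 (SE 0.14, adjusted p = 0.044). Of 13 lineage transcription factors 3 were higher, with Pou2f2, an octamer-binding partner of the Pou2af1 product, at 2.20 (SE 0.48, adjusted p = 0.0040), and 2 without D80 transgenic replicate 3. Pax5, the commitment factor of the B lineage, had 0, 3 and 25 counts in D80 transgenic libraries and 0 in the 9 others, and was removed by the filter. In the BAFF and APRIL list 0 of 8 genes were higher and 1 was lower, Nfkb2 at -0.44 (SE 0.11, adjusted p = 0.0083). The ligand BAFF itself, Tnfsf13b, was at 3.33, 5.16 and 6.04 CPM in the D80 transgenic libraries and at 1.06, 2.47 and 5.37 CPM in their wild-type counterparts (0.71, adjusted p = 0.28). It was higher at D80 than at D60 within transgenic mice (2.21, SE 0.54, adjusted p = 0.0086).

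Plasma cell and T-cell genes were examined in the same comparison, and their counts are near the 19.4% of all genes that were higher. Of 10 plasma cell genes 2 were higher, Derl3 (1.18, adjusted p = 0.031) and Pim2 (1.16, adjusted p = 0.0032), which other secretory or dividing cells also use, and the list's median was 0.12. Igj was at 83.9, 52.1 and 103 CPM in the D80 transgenic libraries and at 26.7, 354 and 162 CPM in their wild-type counterparts (-1.18, adjusted p = 0.26). The immunoglobulin chain genes sought, Ighm, Ighd, Igha, Ighg1, Igkc and Iglc1, were not among the 23420 genes counted and could not be analysed here. Of 16 T-cell genes 3 were higher, among them Foxp3, the factor of regulatory T cells (4.43, SE 0.80, adjusted p = 0.0013), and 1 was higher without D80 transgenic replicate 3, where 16.4% of all genes were. The receptor chain Cd3e was at 1.53, 1.7 and 2.08 CPM in the D80 transgenic libraries and at 0.366, 1.46 and 4.59 CPM in their wild-type counterparts (-0.27, adjusted p = 0.78). The library with most Cd3e was thus D80 wild-type replicate 3, which had 9 counts of Ms4a1, and not the library with most B-cell transcripts. That wild-type library also held the most duodenal enterocyte transcripts, and their part in its Cd3e value was not tested. Of 7 plasmacytoid dendritic cell genes, a cell type that also uses Blk, 3 were higher and 1 lower, and its marker Siglech had 33, 17 and 48 counts in the D80 transgenic libraries and 1, 10 and 7 in their wild-type counterparts (1.99, SE 0.68, adjusted p = 0.034). Its part in the values of Blk was not tested.

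**Figure D4:**
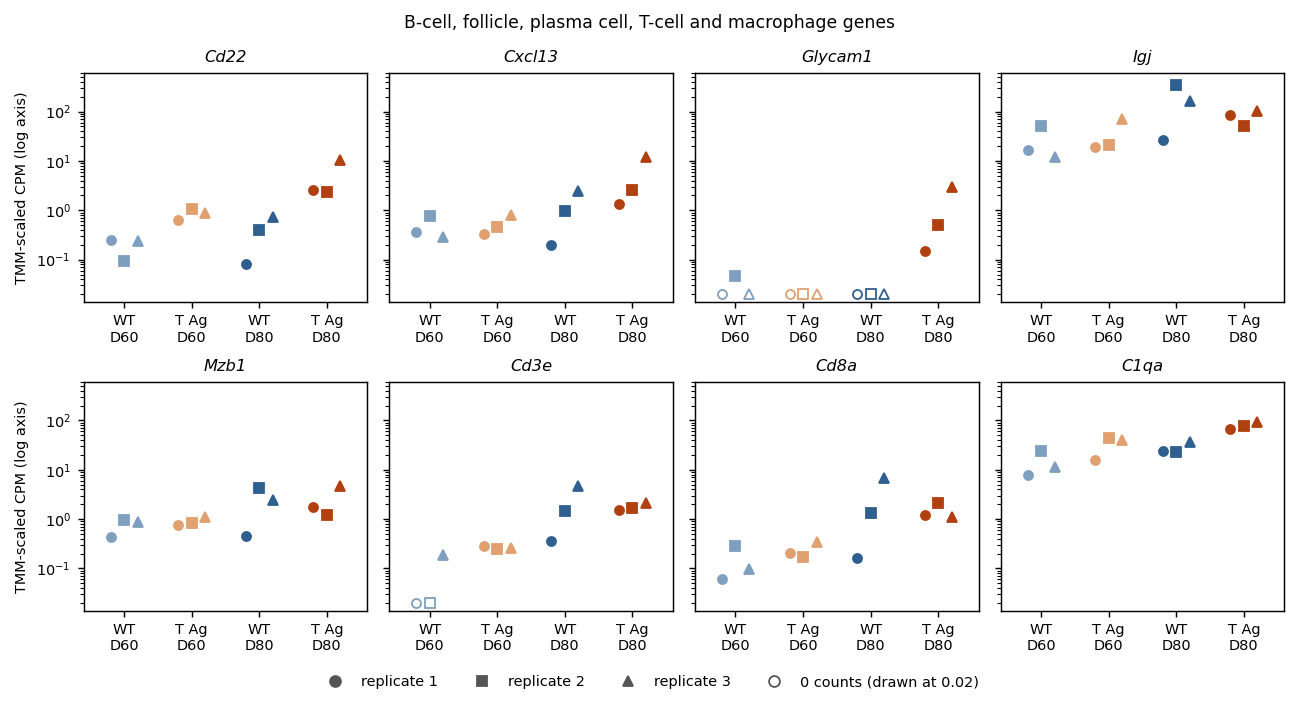
TMM-scaled CPM (log axis) by library of the B-cell gene Cd22, the follicle genes Cxcl13 and Glycam1, the plasma cell genes Igj and Mzb1, the T-cell genes Cd3e and Cd8a and the macrophage gene C1qa. Each symbol is 1 library, its shape gives the replicate, and open symbols mark 0 counts. D80 transgenic replicate 3 is the highest library for Cd22, Cxcl13 and Glycam1. It is also the highest for Mzb1, at 4.68 against 4.32 CPM in D80 wild-type replicate 2, and for C1qa, at 94.1 CPM. D80 wild-type replicate 3 is the highest for Cd3e, at 4.59 CPM, and Cd8a, at 6.76 CPM, and D80 wild-type replicate 2 for Igj, at 354 CPM.

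Across the 12 libraries, the 8 genes ordered libraries in similar but not identical ways. The rank correlation between pairs of them, given without a test because the libraries share groups and depth, ran from 0.35 for Ms4a1 with Pou2af1 to 0.951 for Cd79a with Tnfrsf13c. The genes outside the 8 whose order over the 12 libraries was most like the mean of the 8 were Cd33 and Serpina3g (Spearman's rho 0.979 each), Pilra (0.965), Cxcl13, Dclk3 and Flt3 (0.958 each), and Fyb and S100pbp (0.951 each). Rasal3, Aqp9 and Gbp8 had the same rho as the last 2 and fell outside the 8 genes taken. Cd33 had 86, 74 and 189 counts in the D80 transgenic libraries and 16, 25 and 38 in their wild-type counterparts. Rank correlation gives no extra weight to the size of the jump in D80 transgenic replicate 3, and several of these 8 genes are myeloid rather than B-cell genes.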

How the data were processed

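The members and the gene lists were chosen with earlier results of these data known. The authors deposited raw counts per gene, with no normalization, for 12 RNA-seq libraries of total RNA made with a stranded mRNA kit, per the labels' protocols. Among tools, STAR 2.5.3a, HTSeq 0.9.1 and edgeR 3.16.5 are listed, with the build mm10, per the submitters' processing notes and without roles. Which annotation and strand setting the counting used is not given in the sources. A second table that the authors deposited holds normalized signal for 15465 genes. Dividing it by the value of 1 read in each library returned whole numbers (tolerance 0.01) that matched the raw table in 100% of entries, over 15442 genes shared by name.

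Counts were tested in R 4.3.3 with edgeR 4.0.16 (filterByExpr, TMM, quasi-likelihood, 1 coefficient per group), and p-values were Benjamini-Hochberg adjusted over 15369 genes with a threshold of 0.05. SE is the absolute log2 fold change over the square root of F. All 8 members passed the filter, Blk, Fcer2a, Cr2 and Tnfrsf13c with 3 counts or fewer in at least 1 group, so low groups are given as counts. Ms4a1, Blk, Fcer2a, Cr2 and Tnfrsf13c passed it only through the D80 transgenic group. limma 3.58.1 and DESeq2 1.42.0 served as alternatives. The steps were tested on simulated data. Named genes were the 8 members, up to 4 genes per list by p-value among those passing, fixed tissue markers, and the 8 genes of highest rank correlation. Others named were chosen after their values were seen: Btla, H2-Ob, Cxcr5, Glycam1, Ccl21a, Clu, Mfge8, Enpp2, Bcl10, Mzb1, Cd8a, C1qa, Muc6 and Gkn1. Older symbols were matched through RefSeq (Faim3, Igj). Some genes that the naming rule would take are not reported here.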

Additional observations from a re-analysis of the deposited data

How the results depend on the processing

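Of the 8 genes called higher or not, the count in transgenic against wild-type at D80 was 5. It ranged from 3 to 6 when each library was left out, where 15.5% to 21.6% of all genes were higher. It was 3 with limma-voom (20.8% of all genes higher) and 3 with limma on log2 of the deposited normalized values plus 1 (20.7%). With only the groups compared it was 3 (18.5%). A minimum of 1 CPM in at least 3 libraries left 3 of the 8 genes to test. The count was then 1, where 19.4% of all genes were higher. With no composition factor it was 7, but the median of all genes was then 0.34 rather than -0.07 and 33.2% of all genes were higher rather than 19.4%. With sex as a covariate it was 6, where 18.2% of all genes were higher. That covariate only sets D80 transgenic replicate 1 apart from replicates 2 and 3. Leaving out replicate 1 called the same 6 genes, so the covariate is no separate check on sex. For D80 against D60 in transgenic mice the count was 8. It was 1 to 8 when each library was left out, where 11.7% to 21.4% of all genes were higher. The count was 4 with limma-voom (19.6% of all genes higher) and 3 with the 1 CPM minimum (18.1%). It was 1 without both D80 replicate 3 libraries (15.2%), an alternative chosen after seeing the data. DESeq2 called 5 and 7, where 22% and 21.2% of all genes were higher. It gave no adjusted p-value for 1 gene, Ms4a1, in both. The replicate block left the counts at 5 and 8, where 19% and 17.4% of all genes were higher. The counts of 0 at D60, between ages in wild-type mice and for the interaction stayed at 0 under every alternative run.

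Estimates that did not pass changed sign in some alternatives. At D60, with sex as a covariate, Cd79a was at -1.80, Cd79b at -1.98, Cr2 at -0.33 and Tnfrsf13c at -1.16. Sex by Xist varied within the D80 transgenic group alone, so the covariate rests on replicate 1 against replicates 2 and 3 there. It thus carried the high values of replicate 3 into the D60 and wild-type comparisons, and gives no estimate free of sex. Ms4a1 was at 0.04 at D60 with no composition factor. When each library was left out at D60, Ms4a1 ranged from -1.16 to 0.29, Cd79b from -0.12 to 1.14, Cr2 from -0.27 to 1.88, Tnfrsf13c from -0.27 to 4.13 and Pou2af1 from -0.71 to 0.13. Between ages in wild-type mice Ms4a1 ranged from -2.89 to 0.20 in the same way, and Cd79b was at -1.08 with the sex covariate. For the interaction the ranges were -0.98 to 2.05 for Blk, -1.98 to 2.42 for Tnfrsf13c, -0.16 to 2.43 for Cd79a and -0.06 to 2.43 for Cd79b, and Cd79a was at -0.03 without both D80 replicate 3 libraries. The causes of the sign changes without the sex covariate were not tested. The interaction has no value with only the groups compared, since it uses all 4. Replicate numbers were not taken as pairing: across 18 pairs of libraries sharing a number, deviations from the group means correlated at -0.00405 on average (-0.344 to 0.393).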

Other observations

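Other genes beside those of B cells were much higher in D80 transgenic replicate 3 than in replicates 1 and 2 of its group. Wfdc12, a whey acidic protein family inhibitor, had 414 counts against 14 and 39, and Tnfsf11, the cytokine RANKL, had 211 against 39 and 50. Ptx3, a soluble pattern recognition molecule, had 185 against 19 and 41. Genes of neutrophils were also high there. S100a8, a subunit of calprotectin, had 805 counts against 32 and 206, and the chemokine receptor Cxcr2 had 421 against 29 and 104. In these 2 genes replicate 2 was also well above replicate 1, a difference not seen for Ms4a1, Cd79a or Cr2. These genes were picked after their values were seen, and 1 library allows no test.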
